A study of Mus musculus with 30 samples.

Results

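Hamp and Hamp2 are the pair of mouse hepcidin genes. They were chosen by the gene name of each non-control probe in the array files, where Hamp carries its older name Hamp1. The rule found 2 probes, A_52_P669922 for Hamp and A_52_P21486 for Hamp2, each printed once per array, among 41174 probes and 28786 gene names. Liver RNA of 30 mice was measured on single-colour oligonucleotide arrays, with 1 mouse per array. The groups are DBA/2 (D2) mice on an iron-deficient, an iron-balanced or an iron-enriched diet and C57BL/6 (B6) mice on the same 3 diets, with 5 mice in each. The labels give less than 3 mg of iron per kg for the deficient diet, 200 mg per kg for the balanced diet and 8.3 g per kg for the enriched diet. Each mouse has an animal code of its own, and no transgene, deletion or other agent is named. For sex, age and the length of feeding the sources used here give nothing.

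Hepcidin is a peptide hormone made by hepatocytes. It binds the iron exporter ferroportin, the product of Slc40a1, and causes its degradation, so that less iron enters the plasma from the gut and from macrophages. In hepatocytes its gene is switched on by iron through the ligand Bmp6, its receptors and the SMAD proteins, and in inflammation through IL-6 and STAT3. Humans carry a single hepcidin gene. In mice Hamp encodes the form that acts on iron, and forced expression of Hamp2 in transgenic mice did not disturb iron metabolism in the way that Hamp did.

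The bases upstream of both genes are shown because the signals of the 2 probes differed in strain pattern. The part of the sequences in this was not tested. Both sequences come from RefSeq, assembly GRCm38.p6, minus strand, and hold the 250 bases before the annotated start of each gene, written 5′ to 3′. Hamp lies at chr7:30944030-30944279 and Hamp2 at chr7:30924182-30924431. Capitals mark, in order, GGCGCC or the stretch aligned with it, a match to TTCNNNGAA, and a match to TGAGTCA.
Hamp: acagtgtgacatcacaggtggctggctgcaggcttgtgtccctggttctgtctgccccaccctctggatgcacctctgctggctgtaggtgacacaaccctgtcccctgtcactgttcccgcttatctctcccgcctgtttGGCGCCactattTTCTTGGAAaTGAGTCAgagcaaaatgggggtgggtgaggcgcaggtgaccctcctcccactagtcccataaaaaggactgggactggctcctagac
Hamp2: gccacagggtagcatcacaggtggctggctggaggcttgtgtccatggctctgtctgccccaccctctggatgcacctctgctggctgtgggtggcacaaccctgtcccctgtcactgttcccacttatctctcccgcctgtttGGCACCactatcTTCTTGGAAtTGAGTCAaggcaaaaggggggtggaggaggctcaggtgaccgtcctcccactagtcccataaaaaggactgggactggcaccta

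Of 253 aligned columns, 227 (89.7%) were identical, 20 were substitutions and 6 were gaps. GGCGCC is the core of the BMP-responsive elements described in the human hepcidin promoter, and it was found in Hamp at positions 142 to 147, counted from 1 at the 5′ end of the printed sequence. The aligned stretch of Hamp2 reads GGCACC and differs by 1 substitution, G145A, given with the Hamp base first and the position in Hamp. No GGCGCC was found in the Hamp2 window on either strand. TTCNNNGAA, the form bound by STAT proteins, was found once in each gene with the letters TTCTTGGAA, and TGAGTCA, an AP-1 site, once in each gene. CANNTG, the E-box bound among others by Usf2, was found at 2 places in each gene. Over the 27025 promoters of the same length in the table, 9.54% held GGCGCC, 7.18% TTCNNNGAA, 4.43% TGAGTCA and 66.0% CANNTG, with both strands searched and none of the 4 motifs overlapping another in these windows. A match is a description of letters and not a bound site, the motifs were chosen with both sequences in view, and no D2 sequence was analysed.

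By the scanner software's own mark, 62.5% to 78.4% of the probes on an array exceeded background clearly. The 6 measured markers of hepatocytes, the cells that make hepcidin, were above background in all 5 mice of every group, and their summed intensity lay between 996168 and 1295283 in every mouse. Alb, the brightest of the 6 in every mouse, read the identical 19.00 (log2) in mice of all 6 groups, a value set by its rank in quantile normalization. The normalization thus limits how far this sum can move, and its narrow range is no measure of hepatocyte content. The arrays lay on 10 slides scanned on 3 days, which held 5, 11 and 14 arrays and spread unevenly over the groups. A group present on a day had 1 to 4 mice there, so each value within a day rests on few mice. Fewer cells of a type and less RNA per cell cannot be told apart in whole liver. Hamp and Hamp2 are close relatives, and how alike their transcripts are was not measured here. The probe sequences were not used here, so the match of each probe to the other gene or to the D2 genome was not tested, and the separate levels of the 2 genes are uncertain.

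Levels below are quantile-normalized processed signals on the log2 scale, in arbitrary units of fluorescence, raised to a floor of 3.80 where lower. Hamp read 8.94, 5.45, 4.21, 3.80 and 3.80 in the 5 D2 deficient mice, 16.02, 14.80, 13.02, 16.42 and 15.97 in the 5 D2 balanced mice, and 17.63, 17.17, 17.55, 17.27 and 16.82 in the 5 D2 enriched mice. In B6 livers Hamp read 9.27, 4.03, 4.33, 4.97 and 4.30 on the deficient diet, 15.91, 15.23, 15.94, 16.82 and 15.95 on the balanced diet, and 17.68, 17.66, 17.64, 17.84 and 17.85 on the enriched diet. Within each strain the 3 diets did not overlap, and in each deficient group 1 mouse stood far above the other 4. The spot was well above background in 28 of the 30 mice, the exceptions being the 2 D2 deficient mice at the floor. The group means were 5.24 ± 2.18, 15.25 ± 1.39 and 17.29 ± 0.32 in D2 deficient, balanced and enriched livers, and 5.38 ± 2.20, 15.97 ± 0.57 and 17.73 ± 0.10 in B6 deficient, balanced and enriched livers (SD, n = 5 each).

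Hamp2 read 10.16, 7.56, 7.97, 6.80 and 7.41 in the D2 deficient mice, 17.15, 16.07, 15.02, 16.87 and 16.39 in the D2 balanced mice, and 17.97, 18.04, 17.92, 17.87 and 17.77 in the D2 enriched mice. In B6 livers Hamp2 read 8.11, 7.97, 7.03, 7.09 and 6.78 on the deficient diet, 12.94, 13.24, 13.31, 13.38 and 14.29 on the balanced diet, and 16.42, 16.52, 15.86, 16.10 and 16.15 on the enriched diet. The diets were again apart within each strain, and on the balanced and the enriched diet every D2 mouse lay above every B6 mouse. The Hamp2 spot was well above background in all 30 mice. The group means were 7.98 ± 1.29, 16.30 ± 0.83 and 17.92 ± 0.10 in D2 deficient, balanced and enriched livers, and 7.40 ± 0.60, 13.43 ± 0.51 and 16.21 ± 0.27 in B6 deficient, balanced and enriched livers (SD, n = 5 each).

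**Figure D1:**
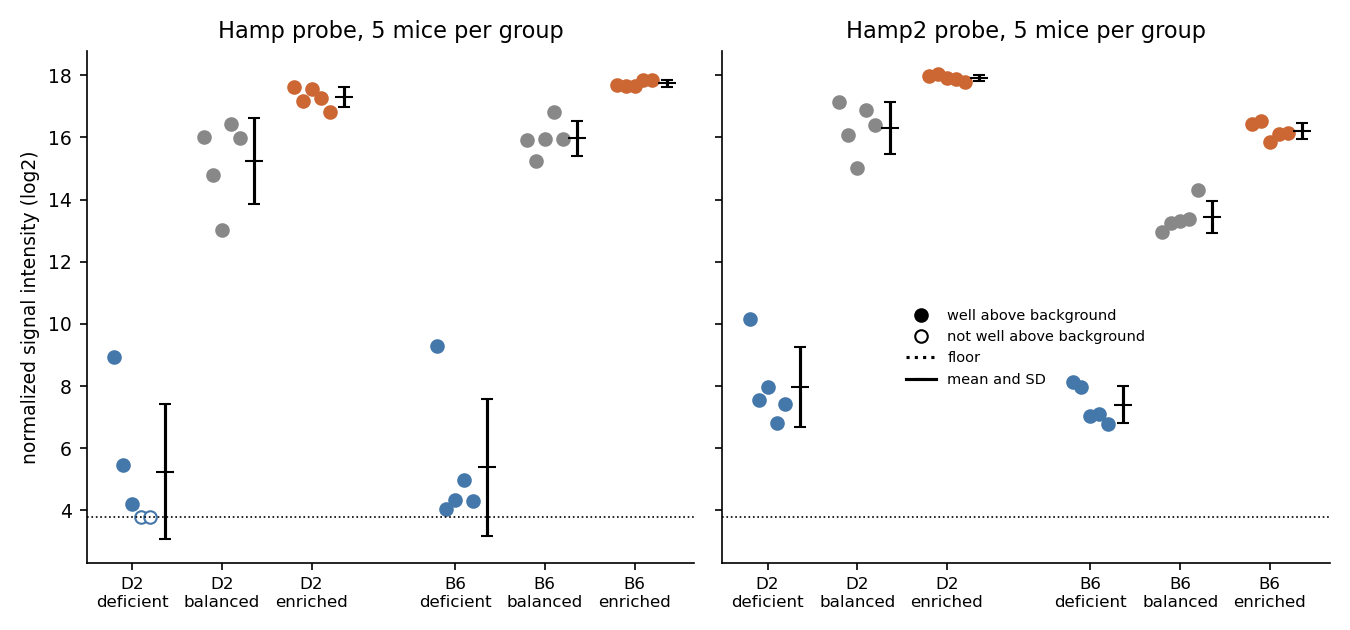
Normalized signal (log2) of the Hamp probe (left) and the Hamp2 probe (right) in each mouse of the 6 groups, with the mean and SD of 5 mice beside the points and the floor as a dotted line. Open points were not well above background. Hamp has a like pattern in both strains, while Hamp2 in B6 balanced mice sits at 12.94 to 14.29, below the 15.02 to 17.15 of D2 balanced mice.

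Ordered by mean, Hamp ran from B6 enriched, D2 enriched, B6 balanced and D2 balanced down to B6 deficient and D2 deficient livers. The neighbouring means of B6 balanced and D2 balanced livers did not differ beyond their spread (exact two-sided permutation p = 0.397, n = 5 each), nor did those of B6 deficient and D2 deficient livers (exact p = 0.810). For Hamp2 the order was D2 enriched, D2 balanced, B6 enriched, B6 balanced, D2 deficient and B6 deficient. There the pairs that did not differ beyond their spread were D2 balanced with B6 enriched livers (exact p = 0.873) and D2 deficient with B6 deficient livers (exact p = 0.468). The other 6 of the 10 neighbouring pairs had exact p of 0.00794, the smallest that 5 against 5 mice allow, or 0.0159, and passed after adjustment over the 10 pairs (adjusted p of 0.0159 to 0.0265).

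The deficient against the balanced diet asked how the liver responds to a shortage of iron. Both hepcidin genes fell in both strains, and they held the lowest and next lowest change of all 21071 tested genes in each strain. Hamp fell by 10.01 on the log2 scale in D2 mice (SE 0.85, limma adjusted p = 4.51e-08) and fell by 10.59 in B6 mice (SE 0.85, adjusted p = 1.28e-08). These are 1029-fold and 1540-fold lower signals, and the D2 value rests on 3 mice above background and 2 at the floor. Hamp2 fell by 8.32 in D2 mice (SE 0.43, adjusted p = 1.16e-12) and fell by 6.03 in B6 mice (SE 0.43, adjusted p = 1.26e-09), which are 320-fold and 65.6-fold lower. All deficient mice lay below all balanced mice for both genes. Of all tested genes, 2.89% passed as lower in D2 and 0.683% in B6, and 4.01% in D2 and 1.09% in B6 were lower without overlap. The summed intensities of 7 lists of cell type markers, those of hepatocytes among them, overlapped between deficient and balanced mice of each strain. For hepatocytes the normalization limits the sum, as given above.

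The size of the Hamp fall depends on the treatment of dim spots. With a 4 times higher floor it was 8.82 in D2 and 9.48 in B6 mice on the log2 scale, and with a modelled background (normexp) 8.18 in D2 and 8.82 in B6 mice, all past the threshold. Within the scan days that held both diets, the log2 change of Hamp was -10.97, -10.81 and -9.40 in D2 mice (days 1, 2 and 3) and -11.38 and -9.35 in B6 mice (days 2 and 3). For Hamp2 it was -9.31, -8.97 and -7.33 in D2 mice and -5.97 and -5.59 in B6 mice.

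The difference between the strains in the deficiency response was tested as an interaction. For Hamp it was 0.58 (D2 change minus B6 change on the log2 scale, 95% interval -1.90 to 3.06, limma adjusted p = 0.976). For Hamp2 it was -2.29 (95% interval -3.54 to -1.03), a larger fall in D2 mice and the 5th lowest of all tested genes, but it did not pass over all genes (unadjusted p = 0.000915, adjusted p = 0.371; 0.019% of genes passed). Without D2 deficient mouse 1 the Hamp2 value was -2.83 and passed (limma adjusted p = 0.0206). On the deficient diet itself Hamp2 averaged 7.98 in D2 and 7.40 in B6 livers, which overlapped (difference 0.58, 95% interval -0.31 to 1.47, adjusted p = 0.369; 28.4% of all genes differed between the strains on this diet).

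The enriched against the balanced diet asked how the liver responds to iron loading. In both strains every enriched mouse lay above every balanced mouse for both genes, but only the Hamp2 rise in B6 mice passed over all genes. There Hamp2 rose by 2.78 on the log2 scale (6.85-fold, SE 0.43, limma adjusted p = 0.000160), the 8th highest change. In D2 mice the Hamp2 difference was 1.62 (3.07-fold, 95% interval 0.73 to 2.51, adjusted p = 0.283) and the Hamp difference 2.04 (4.12-fold, 95% interval 0.29 to 3.80, adjusted p = 0.795), the 4th highest and the highest change of all tested genes. In B6 mice the Hamp difference was 1.76 (3.39-fold, 95% interval 0.01 to 3.52, adjusted p = 0.280). Of all tested genes, 0.0712% passed as higher in D2 and 3.31% in B6, and 0.731% in D2 and 3.28% in B6 were higher without overlap.

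The spread that this fit uses for a gene is pooled over the 6 groups, and the SD of Hamp was 2.18 and 2.20 in D2 deficient and B6 deficient livers against 0.10 in B6 enriched livers. With the B6 enriched and B6 balanced groups alone, the Hamp difference of 1.76 passed (limma adjusted p = 0.00783). Without deficient mouse 1 of both strains it passed as well (adjusted p = 0.0164), and so did the Hamp2 difference of 1.62 in D2 mice (adjusted p = 0.0348, and 0.0413 without D2 deficient mouse 1 alone). Leaving out both mice was decided after their high Hamp values were seen and narrows the pooled spread, so it is no separate support. The exact permutation test gave p = 0.00794 for each of the 4 enrichment differences (n = 5 each). Within the scan days that held both diets, Hamp2 was higher by 0.95, 1.85 and 1.62 in D2 mice (days 1, 2 and 3) and by 3.58 and 2.50 in B6 mice (days 2 and 3), and Hamp by 0.63, 2.93 and 1.43 in D2 mice and by 1.75 on each day in B6 mice.

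The summed macrophage markers were also apart in D2 mice, 35621 to 44632 on the enriched and 29120 to 34376 on the balanced diet, and their part was not tested. Taken singly, none of the 7 macrophage markers passed in this comparison, and Cd5l was the brightest in the sum. The enrichment response was not shown to differ between the strains. The interaction was 0.28 for Hamp (95% interval -2.20 to 2.76, limma adjusted p = 0.973) and -1.16 for Hamp2 (95% interval -2.42 to 0.10, adjusted p = 0.480). Of all genes, 1.11% passed this test. The enriched and the deficient comparison share the balanced mice of each strain.

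**Figure D2:**
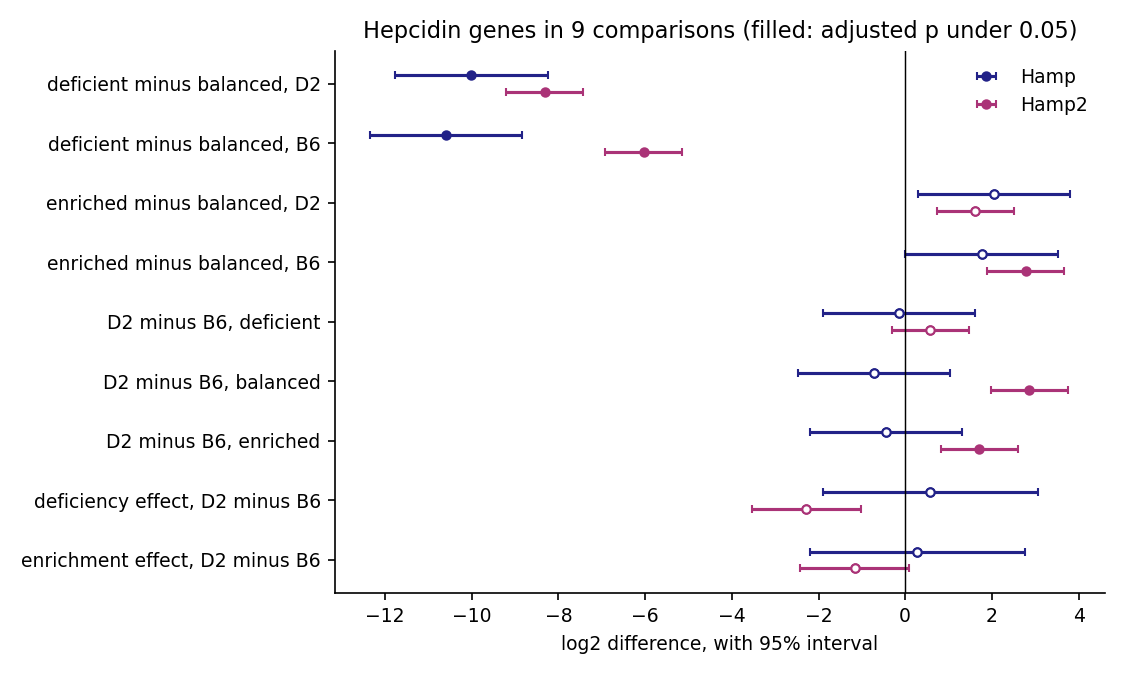
Log2 differences of Hamp and Hamp2 with 95% intervals in 9 comparisons. The first 4 rows set a diet against the balanced diet, the next 3 set D2 against B6 mice on one diet, and the last 2 set the D2 response against the B6 response. Filled points passed at an adjusted p under 0.05, and both genes lie far left of 0 in the 2 deficiency rows.

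D2 against B6 mice on the same diet asked whether the strains differ. Hamp2 was higher in D2 livers on the balanced diet by 2.86 on the log2 scale (7.29-fold, SE 0.43, limma adjusted p = 8.30e-06) and on the enriched diet by 1.71 (3.26-fold, SE 0.43, adjusted p = 0.00265). The ranges were apart on both diets. Strain differences were frequent on these arrays: 17.2% of genes passed as higher in D2 on the balanced diet and 18.1% on the enriched diet, and 11% and 14.7% were higher without overlap. The Hamp2 difference on the balanced diet was the 62nd highest of all tested genes, and on the enriched diet the 326th. Within the scan days it was 3.55, 3.13 and 2.75 on the balanced diet (days 1, 2 and 3) and 1.40 and 1.88 on the enriched diet (days 2 and 3). The balanced values rest on 1 D2 and 1 B6 mouse, on 3 and 1, and on 1 and 3. The enriched values rest on 1 D2 and 1 B6 mouse and on 2 and 4.

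For Hamp no strain difference passed over all genes. The D2 minus B6 difference was -0.72 on the balanced diet (95% interval -2.48 to 1.03, limma adjusted p = 0.590) and -0.14 on the deficient diet (95% interval -1.90 to 1.61, adjusted p = 0.934). On the enriched diet the difference of -0.45 missed the threshold (95% interval -2.20 to 1.31, adjusted p = 0.736), although all 5 D2 mice lay below all 5 B6 mice (exact permutation p = 0.00794, n = 5 each; 12.9% of genes were lower in D2 without overlap). With only these 2 groups in the fit it passed (limma adjusted p = 0.0337), and with the slide as a block its sign turned to 0.11. The sign of the balanced-diet difference also turned with the slide as a block, to 0.43.

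The summed intensity of the 7 macrophage markers also differed between the strains. It lay between 28591 and 44632 in D2 mice and between 45904 and 99485 in B6 mice, with all 7 markers above background in every mouse. The 7 sinusoidal endothelial markers summed to 23575 to 26090 in D2 and 27065 to 34107 in B6 balanced mice, and to 25918 to 28659 in D2 and 33966 to 37544 in B6 enriched mice. The hepatocyte sums were lower in D2 mice as well, at 1006843 to 1147861 in D2 and 1178067 to 1295283 in B6 balanced mice, and at 996168 to 1071292 in D2 and 1139675 to 1230922 in B6 enriched mice. Of the 6 hepatocyte markers taken singly, 2 passed as lower and 1 as higher in D2 mice on each of these 2 diets, and 3 did not pass. The part of these marker differences in the Hamp2 result was not tested. The software read the Hamp2 spot from the low-gain scan in all 5 D2 balanced mice and in none of the B6 balanced mice, and the part of the gain was not tested either.

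Set against each other within a mouse, the signals of the 2 genes stood in unlike ratios in the 2 strains. The Hamp2 minus Hamp log2 difference was 1.05 ± 0.66 in D2 balanced and -2.54 ± 0.72 in B6 balanced livers (SD, n = 5 each). On the enriched diet it was 0.63 ± 0.27 in D2 and -1.52 ± 0.30 in B6 livers. The values compare groups and not the amounts of the 2 transcripts, since each probe has its own brightness.

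The D2 minus B6 shift of this ratio was 3.59 on the balanced diet, a 12.0-fold change, and 2.15 on the enriched diet, a 4.44-fold change, with ranges apart in both cases (exact two-sided permutation p = 0.00794, adjusted p = 0.0159 over 4 comparisons, n = 5 each). In B6 mice the ratio was higher on the enriched than on the balanced diet by 1.01 (exact p = 0.0317, adjusted p = 0.0423). Leaving out 1 mouse at a time, 5 of 10 fits lost that call, with exact p up to 0.0714. In D2 mice the enriched minus balanced difference was -0.42 (exact p = 0.214). Within the scan days the D2 minus B6 shift on the balanced diet was 3.07, 4.43 and 2.78 (days 1, 2 and 3) and on the enriched diet 1.52 and 2.23 (days 2 and 3). The B6 rise with enrichment was 1.83 and 0.74 (days 2 and 3).

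**Figure D3:**
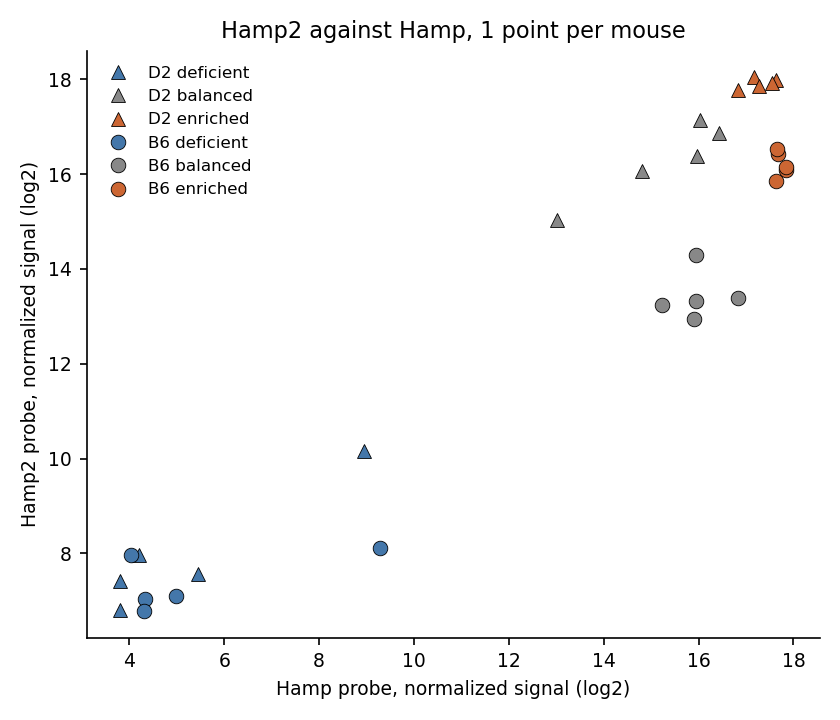
Normalized signal (log2) of Hamp2 against Hamp, with 1 point per mouse, triangles for D2 and circles for B6 mice, and colours for the diet. Balanced and enriched D2 mice lie above B6 mice of like Hamp signal, and 1 deficient mouse of each strain lies apart to the right of the other deficient mice.

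In each strain the deficient mouse numbered 1 stood apart. Hamp read 8.94 in D2 deficient mouse 1 against 3.80 to 5.45 in the other 4. This is 24.7-fold above their mean, a value that the floor sets, since 2 of the 4 were raised to it and were not well above background. In B6 deficient mouse 1 Hamp read 9.27 against 4.03 to 4.97 in the other 4, 29.1-fold above their mean. Hamp2 was 6.61-fold above the mean of the other 4 in the D2 mouse and 1.86-fold in the B6 mouse, where the next mouse read 7.97 against its 8.11. These 2 mice, B6 balanced mouse 4 and B6 enriched mouse 4 were hybridised on the same slide, and the part of the slide in the high Hamp values was not tested.

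Other genes of the iron response differed in where they placed the 2 mice. Atoh8, a transcription factor induced with hepcidin, was highest in mouse 1 of both strains, at 8.37 in the D2 mouse (other 4: 8.07 to 8.28) and 8.81 in the B6 mouse (other 4: 7.68 to 8.45). Smad7, the inhibitory SMAD that damps hepcidin, was highest in the D2 mouse, at 9.19 (other 4: 8.83 to 9.01), and read 9.00 in the B6 mouse (other 4: 8.71 to 9.14). Tfrc, the transferrin receptor that is raised in iron-poor cells, read 12.03 in D2 deficient mouse 1 (other 4: 11.59 to 11.88) and 11.96 in B6 deficient mouse 1 (other 4: 11.53 to 12.26). Bmp6 read 7.92 in the D2 mouse (other 4: 7.91 to 8.21) and 8.10 in the B6 mouse, below the 8.23 to 8.37 of the other 4. Id1, a direct SMAD target, read 8.66 in the D2 mouse (other 4: 8.30 to 8.82) and 8.55 in the B6 mouse, below the 9.36 to 9.66 of the other 4. Without the 2 mice, Hamp fell on the deficient diet by 10.93 in D2 and 11.56 in B6 mice on the log2 scale. Pancreatic acinar markers, which a liver sample can pick up, summed to 3434 in D2 deficient mouse 1 (other 4: 1437 to 2820) and to 3153 in B6 deficient mouse 1 (other 4: 1702 to 2868), within the range of balanced mice, which reached 3546 in D2 and 3302 in B6. Ctrb1, the brightest of the 9 markers in every mouse, carried most of these sums. Cpa1, Cpb1, Cela3b, Prss2 and Clps read 7.54, 7.41, 7.91, 6.32 and 7.09 in D2 deficient mouse 1, each the highest of all 30 mice. D2 balanced mouse 4 came near, with 7.37, 6.86, 7.45, 5.93 and 6.88 for the same markers. In B6 deficient mouse 1 these 5 markers read 4.44, 6.31, 6.02, 4.66 and 5.66. The highest of the other 4 B6 deficient mice read 4.47, 6.61, 5.87, 4.58 and 5.47. Ctrb1, Pnlip, Cela1 and Cela2a were not highest in D2 deficient mouse 1. The part of the acinar signal was not tested.

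**Figure D4:**
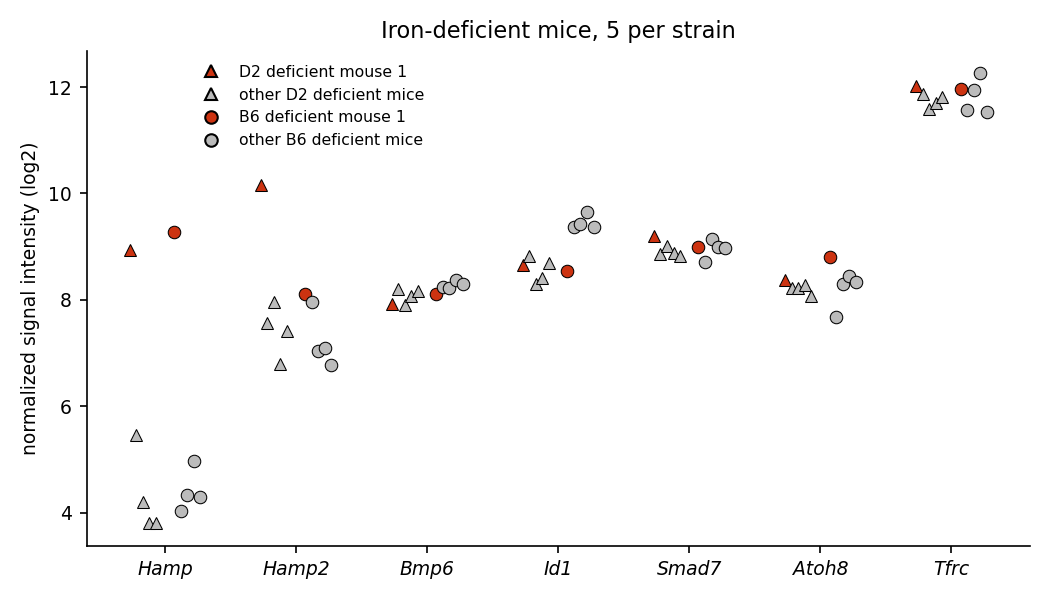
Normalized signal (log2) of Hamp, Hamp2 and 5 genes of the iron response in the 10 iron-deficient mice, triangles for D2 and circles for B6 mice, with mouse 1 of each strain in red. For Hamp the 2 red points at 8.94 and 9.27 lie above all other deficient mice, and for Atoh8 they are also the highest of their strain, at 8.37 and 8.81. For Bmp6, Id1 and Tfrc the B6 red point lies within or below the other B6 deficient mice.

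The pathway that controls hepcidin was described through 7 lists of genes, chosen with earlier results of these data known. Of the iron input, the list of BMP ligands, receptors and iron sensors, 15 genes were tested. On the deficient diet 1 fell in D2 and 1 in B6 mice, and on the enriched diet 1 rose in D2 and 2 rose in B6 mice. Bmp6, the ligand made in the liver in proportion to its iron, was the one that passed each time. It averaged 8.06 ± 0.14, 8.99 ± 0.14 and 9.79 ± 0.16 in D2 deficient, balanced and enriched livers and 8.25 ± 0.10, 9.45 ± 0.08 and 11.06 ± 0.11 in B6 deficient, balanced and enriched livers (log2 signal, SD, n = 5 each). Its rise with enrichment was smaller in D2 mice (0.80) than in B6 mice (1.61), with an interaction of -0.82 (limma adjusted p = 0.000595). The other that rose was Hfe, a sensor that partners the transferrin receptors, by 0.27 in B6 enriched livers (adjusted p = 0.0289). The list's median changes were 0.01 in both enrichment comparisons, 0.01 on B6 deficiency and -0.06 on D2 deficiency, against medians of all genes of -0.01 to 0.03. Of all tested genes, 1.78% in D2 and 1.11% in B6 rose on the deficient diet and 0.019% in D2 and 2.52% in B6 fell on the enriched diet, beside the shares in the other direction given above.

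Of 12 SMAD effectors and feedback genes, 2 rose in D2 and 6 rose in B6 enriched livers, and 2 fell in D2 and 1 fell in B6 deficient livers. Id1 rose by 1.81 in D2 (SE 0.31, limma adjusted p = 0.0127) and by 2.91 in B6 enriched livers (SE 0.31, adjusted p = 9.91e-07). Atoh8 rose by 1.09 in D2 (adjusted p = 0.0216) and 1.97 in B6 enriched livers (adjusted p = 5.56e-07) and fell by 0.73 in D2 (adjusted p = 0.0345) and 0.96 in B6 deficient livers (adjusted p = 0.0110). Smad7 rose by 2.55 in B6 enriched livers (adjusted p = 2.47e-08), with a smaller response in D2 mice (interaction -1.66, adjusted p = 0.00562), and fell by 0.78 in D2 deficient livers (adjusted p = 0.0357). Smad6, Id2 and Id3 rose in B6 enriched livers by 0.93, 1.23 and 2.04. The list's median change was 0.45 in D2 and 0.71 in B6 enriched livers, and -0.19 in D2 and -0.17 in B6 deficient livers, against medians of all genes within 0.03 of 0.

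The Hamp2 and Hamp signals of D2 enriched livers, 17.92 and 17.29, stood beside a Bmp6 signal 1.27 lower than in B6 enriched livers on the log2 scale (limma adjusted p = 2.19e-12). Of the 12 SMAD effectors and feedback genes, 4 were lower and 3 higher in D2 than in B6 enriched livers, where 17.3% of all tested genes were lower and 18.1% higher. The lower ones were Id1, Smad7, Atoh8 and Id3, with log2 differences of -1.72, -1.62, -1.19 and -2.16 (adjusted p of 7.06e-05, 1.01e-06, 2.91e-05 and 4.02e-06). The higher ones, named after their values were seen, were Smad5, a receptor-activated SMAD, with 0.23, and the ubiquitin ligase genes Smurf1 with 0.84 and Smurf2 with 0.30. On the balanced diet Bmp6 was lower in D2 livers by 0.45 (adjusted p = 0.000118), and Id1, Smad7 and Atoh8 did not pass (differences of -0.62, 0.04 and -0.31). Of the 12 SMAD effectors and feedback genes, 1 was higher and 1 lower in D2 balanced livers, and 10 did not pass. Of all 21071 tested genes, 3617 were higher and 2719 lower there.

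Of 13 genes of the IL-6 and STAT3 input, none passed on the deficient diet or on the enriched diet in D2 mice, and in B6 enriched livers Crp fell by 0.58 and Fgb rose by 0.29. Of 9 transcription factors reported at hepcidin promoters, Cebpa fell by 0.50 and Usf2 by 0.70 in B6 enriched livers and Usf2 by 0.51 in D2 enriched livers, while Atf4 rose by 0.49 in D2 deficient livers. The other Usf2 probe passed in neither strain on enrichment (-0.12 in D2 mice, and -0.36 in B6 mice with a limma adjusted p = 0.277 over all probes). Of the 9 suppressors of hepcidin 7 were tested, and Nrg1 alone passed, by 0.65 in B6 enriched livers (limma adjusted p = 0.0471), on 1 of its 5 probes. Of 5 tested genes of maturation, target and binding, Slc40a1, the exporter that hepcidin acts on, rose by 0.63 in B6 enriched livers (adjusted p = 0.00406). Among 8 genes of cellular iron status, Tfrc fell by 1.29 in D2 and fell by 1.67 in B6 enriched livers and rose by 2.82 in D2 and 2.20 in B6 deficient livers. Slc11a2, the iron importer DMT1, rose by 0.65 in D2 and 0.45 in B6 deficient livers and fell by 0.75 in B6 enriched livers, and the ferritin light chain gene Ftl1 rose by 0.54 in B6 enriched livers. Slc11a2 passed on deficiency with 1 of 3 probes.

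**Figure D5:**
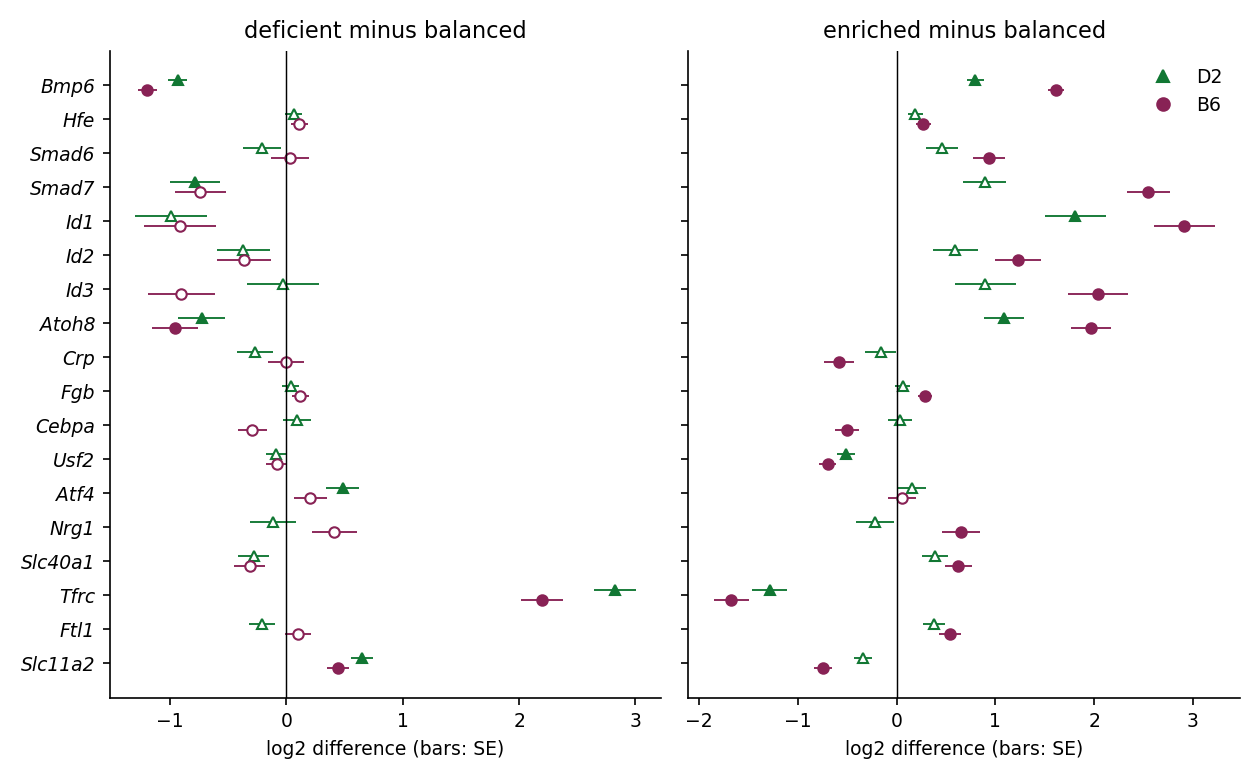
Log2 differences (bars: SE) of the 18 hepcidin pathway genes that passed in at least 1 of 4 comparisons, deficient against balanced on the left and enriched against balanced on the right, triangles for D2 and circles for B6 mice, filled where the adjusted p was under 0.05. Bmp6 and Atoh8 are filled in all 4 comparisons with opposite signs on the 2 diets, and Tfrc runs the other way.

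Whether mice of a group with more Bmp6 or SMAD target signal also had more hepcidin signal was asked over the 20 balanced and enriched mice, as deviations from their group means. Pearson's r of Hamp was 0.53 with Id1 (Spearman's rho 0.44, permutation p = 0.0159 for r), 0.46 with Smad7 (rho 0.51, p = 0.0225), 0.45 with Bmp6 (rho 0.36, p = 0.0795), 0.28 with Atoh8 and -0.06 with Socs3, a STAT3 target. Hamp2 gave 0.48 with Bmp6 (rho 0.47, permutation p = 0.0359), 0.47 with Id1 (rho 0.37, p = 0.0360) and 0.37 with Smad7, and Hamp with Hamp2 gave 0.73 (rho 0.57, p = 0.0260). None of the 11 relations computed passed after adjustment, the lowest adjusted permutation p being 0.0792.

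These relations rest in part on D2 balanced mouse 3, which had the lowest Hamp (13.02) and Hamp2 (15.02) of the balanced mice of its strain. Without it, r fell to 0.29 for Hamp with Id1, 0.26 for Hamp with Bmp6 and 0.37 for Hamp with Hamp2. Without the 2 mice farthest from the median on the x axis, r was 0.47 for Hamp with Id1, 0.37 for Hamp with Bmp6, 0.53 for Hamp with Smad7, 0.41 for Hamp2 with Bmp6, 0.24 for Hamp2 with Id1 and 0.61 for Hamp with Hamp2. Among the 9 mice of scan day 3, r was -0.14 for Hamp with Id1, -0.40 for Hamp with Bmp6, 0.37 for Hamp with Smad7 and 0.05 for Hamp with Hamp2. Days 1 and 2 held too few of these mice for a value.

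The genes beside the pair were looked up by their order in the RefSeq table. Hamp2 and Hamp are parted by the pseudogene Usf2-ps1, with Mag, D7Ertd128e, Cd22, Ffar1 and Ffar3 on the Hamp2 side and Usf2, Lsr, Fam187b, Gm18196 and Gm42377 on the Hamp side. Of these, 6 were tested. None of the 6 passed on the deficient diet, where both hepcidin genes fell, although the other Usf2 probe fell by 0.60 in D2 deficient livers (limma adjusted p = 0.0421 over all probes). On the enriched diet Usf2 fell in both strains on 1 of its 2 probes as given above, and Lsr, which encodes a lipoprotein receptor, fell by 0.34 in B6 mice (limma adjusted p = 0.00915). Between the strains, Fam187b was lower in D2 livers, with log2 differences of -2.32, -2.33 and -2.75 on the deficient, balanced and enriched diets. Lsr was higher in D2 livers on the enriched diet, by 0.30 (limma adjusted p = 0.00420). Cd22, which encodes a co-receptor on B cells, was lower in D2 livers with -0.75 and -0.77 on the deficient and balanced diets.

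The patterns most like those of the hepcidin genes were sought by Pearson's r over the 6 group means, among 3019 tested genes whose means spanned at least 1 on the log2 scale, as a description. Hamp and Hamp2 had r = 0.96 with each other. Highest with Hamp were Ly6a (0.98), Cryl1 (0.96), Ly6f (0.95), Nat8 (0.92) and Esrrb (0.91), and with Hamp2 Cryl1 (0.96), Ly6a (0.91), Map2k6 (0.89), Cyp1a1 (0.88) and Fam229b (0.88). Tfrc had the lowest r with both, -0.96 with Hamp and -0.98 with Hamp2, ahead of Fabp4 with -0.96 and -0.97, and the third lowest were Ppp1r3g with Hamp (-0.95) and Cyp26b1 with Hamp2 (-0.97). The sizes differed widely: the group means of Ly6a spanned 1.35 and those of Tfrc 4.16, against 12.49 for Hamp and 10.52 for Hamp2. The 6 means come from the same arrays, and the 2 deficient ones lie far from the rest for Hamp and Hamp2.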

How the data were processed

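Liver RNA of 30 mice was measured with 1 array per mouse. The authors deposited the scanner software's file of each array, in linear intensity. Per the file headers, spots were read with Feature Extraction 9.1.3.1 (9.5.1 per the labels), and the processed signal is an intensity after background subtraction, with no normalization between arrays. The deposited files also hold the well above background, saturation and outlier marks used here, which are 0 or 1. The deposited value table holds the same intensity (largest difference 0; column medians 58.9 to 117), linear, not centred, and was not used further.

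Control spots (1639) and outlier-marked spots were left out and spots of a probe averaged. Signals were quantile-normalized, given a floor of 13.9 (the lowest signal well above background of each array, median of 30) and log2 transformed. Probes well above background on at least 3 arrays of each strain were kept (29985), the brightest standing for each gene, which gave 21071 genes. Names came from RefSeq, assembly GRCm38.p6 (22951 probes by accession, 6659 by symbol, 11564 with the file's name). The files name no build.

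All mice entered 1 limma fit of 6 group means (limma 3.58.1, R 4.3.3, Python 3.11.15), Benjamini-Hochberg adjusted over all genes at 0.05, with 95% intervals from its moderated variances. Each adjusted p is limma's unless another test is named. The fit was tested on simulated data in which each gene had the same spread in every group. This does not hold for Hamp, so the simulation does not test the fit for that gene. Exact permutation tests compared groups of 5 for single values. The relations within groups used 100000 permutations. Replicate numbers follow accession order. The number of arrays limits the precision. Members, lists, motifs and tests were chosen with earlier results of these data known. Named genes are the 2 members, pathway genes that passed in a diet comparison, the 5 annotated genes on each side of the pair, the 5 highest and 3 lowest r over group means, and Socs3 for the relations. Smad5, Smurf1, Smurf2 and the pancreatic acinar markers were named after their values were seen. Alternatives covered scaling, background, floor, filter, probe choice, samples in the fit, variance model, slide, scan day and each mouse left out.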

Additional observations from a re-analysis of the deposited data

Results flagged for a closer look

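Hamp in B6 deficient mouse 1 read 9.27 (normalized log2 signal), and the other 4 mice of the group read 4.03 to 4.97. The gap to the next mouse was 0.821 of the group's whole range, above the 95% critical value of Dixon's test for 5 mice. In D2 deficient mouse 1, on the same slide, the Hamp gap was 0.679 of the range and lay under that value. In all 16 groups of values were tested, of which chance alone would mark about 1 in 20.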

How the results depend on the processing

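Leaving out, in turn, each of the 30 mice moved the log2 difference of Hamp within -10.93 to -9.65 (D2) and -11.56 to -10.25 (B6) on deficiency, 1.48 to 2.34 (D2) and 1.58 to 1.98 (B6) on enrichment, -1.07 to 0.83, -1.02 to -0.17 and -0.53 to -0.33 for D2 minus B6 on the deficient, balanced and enriched diets, and -0.34 to 1.55 and -0.28 to 0.57 for the strain difference of the deficiency and the enrichment effect. For Hamp2 the ranges were -8.86 to -8.03 (D2) and -6.21 to -5.82 (B6) on deficiency, 1.30 to 1.83 (D2) and 2.65 to 2.99 (B6) on enrichment, 0.03 to 0.87, 2.65 to 3.18 and 1.62 to 1.78 for the strains, and -2.83 to -1.99 and -1.48 to -0.95 for the strain differences. The 4 ratio shifts ranged over 3.35 to 3.81, 2.07 to 2.25, 0.79 to 1.23 and -0.58 to -0.19.

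The Hamp difference of 1.76 on B6 enrichment also passed by the methods' t-test (adjusted p = 0.0216), without the 4 arrays of slide 10 (1.95, limma adjusted p = 0.0276) and without the deficient groups (adjusted p = 0.0318). On D2 enrichment the exact permutation test gave an unadjusted p = 0.00794 for the 2.04 of Hamp and the 1.62 of Hamp2. It gave the same for the -0.45 of Hamp between enriched strains. This is the smallest p that 5 against 5 mice allow and not a pass over all genes. With the compared groups alone that -0.45 passed. The Hamp2 deficiency effect was -2.65 and passed without deficient mouse 1 of both strains (limma adjusted p = 0.0406). The fits without slide 10, without the deficient groups and without deficient mouse 1 of both strains were added after the data were seen.

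Within single scan days, which hold few mice, calls were lost (adjusted p of 0.0677 to 0.419): on day 1 for deficiency in D2 (Hamp -10.97, Hamp2 -9.31) and Hamp2 between balanced strains (3.55), on day 2 for Hamp2 on B6 enrichment (3.58), B6 deficiency (-5.97) and between enriched strains (1.40), and on day 3 for Hamp on B6 deficiency (-9.35). Signs turned, below the threshold throughout, for Hamp between balanced strains (0.43 with the slide as a block, 0.48 within day 1), between enriched strains (0.11 with the slide as a block), for its enrichment effect (-0.32 with the slide and -0.10 with the scan day as a block, -0.33 within day 3) and its deficiency effect (-1.01, -0.13 and -0.054), and for 9 relations: on day 3 Hamp with Bmp6 (-0.40), Id1 (-0.14) and Atoh8 (-0.14) and Hamp2 with Bmp6 (-0.26), Id1 (-0.60), Smad7 (-0.42) and Atoh8 (-0.027), and Socs3 with Hamp (0.19, scan day as a block) and Hamp2 (0.017, no normalization). The cause was not tested.

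Numbers of genes that passed moved by more than 1.5 times without normalization between arrays (133, of which 9 were higher, against 19, of which 15 were higher, on D2 enrichment; 713 against 1228 on B6 enrichment; 452 against 986 on D2 deficiency; 894 against 234 for the enrichment effect), where medians of all genes shifted by up to -0.29 on the log2 scale, so that 1706 of 8382 against 3818 of 7470 genes were higher in D2 enriched livers. By the methods' t-test, adjusted, 363 passed on B6 enrichment, 14 on B6 deficiency (against 378) and 485 on D2 deficiency, and 0 on D2 enrichment, where 1297 had an unadjusted p under 0.05 by that test. On D2 enrichment 12 genes passed with a lower floor and 6 without the deficient groups. On B6 deficiency 65 passed with the slide as a block and 236 without slide 10, against 378. Without slide 10, 735 passed on B6 enrichment, 549 on D2 deficiency and 106 for the enrichment effect (365 with the scan day as a block). For the deficiency effect at most 15 passed under any alternative, against 4. No paired analysis was possible because replicate numbers follow accession order and pair no mice.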

Other observations

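The processed signal of the Hamp spot spanned 4.81 to 242051 over the 30 arrays, and that of the Hamp2 spot 99.3 to 271966. No spot of either gene was saturated or carried an outlier mark. The scanner took 2 passes at different gains, and the software took the low-gain pass for Hamp on 19 arrays and for Hamp2 on 15 arrays. For Hamp2 this held for all 5 mice of the D2 balanced, D2 enriched and B6 enriched groups and for none of the deficient or B6 balanced mice, and for Hamp for all 5 mice of both enriched groups and of the B6 balanced group, 4 D2 balanced mice and no deficient mouse.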
